A study of Pinellia ternata with 6 samples.

Results

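The 77 unigenes that were most abundant among those at hand in seedlings of 2 Pinellia ternata lines are described here. Pinellia ternata is a tuber-forming herb of the arum family, and a unigene is the set of transcripts (isoforms) that the assembly program Trinity assigned to 1 gene. The members were chosen on measured values: the values of all isoforms of a unigene were added up, and a unigene was taken when its mean over the 6 samples was at least 500 FPKM, that is, fragments counted relative to transcript length and library size, after TMM scaling between samples. This rule took 77 of the 62591 unigenes in the file, and their abundance is therefore a description and no finding. The study assembled more unigenes than these, so other abundant ones may be missing. Places in the order of abundance below refer to the 62591 unigenes only.

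The T2Plus line is a line with 16 chromosome sets (2n = 208) that does not occur in nature, obtained from the T2 line by colchicine. The T2 line is a naturally occurring octoploid (8 sets, 2n = 104) that goes back to a single plant and was raised through tissue culture, and it served as the control. Both were sampled as whole seedlings 30 days after planting, with 3 samples per line, and poly(A) RNA was sequenced. The study calls the samples independent biological replicates. It also states that 5 seedlings of a group were mixed before grinding, and whether each sample was a pool of its own is not clear. The spread between samples may therefore be partly technical, and the p-values below measure this spread only.

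In seedlings, a small number of genes usually supplies a large part of the mRNA. Genes for the light reactions, carbon fixation, protein synthesis and storage are known for very high transcript levels in green tissue. In photosystem II, the oxygen-evolving enhancer protein 1 (PsbO) shields the manganese cluster at which water is split. Doubling of the chromosome set supplies every gene in more copies, while RNA sequencing of equal amounts of RNA measures only the relative share of each transcript. Levels per cell were not measured, and in whole seedlings a lower number of cells of a type and less RNA per cell cannot be told apart.

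The summed values and the scaling touch all results below. The values added up to between 527915 and 535112 FPKM in T2Plus samples and between 564456 and 626556 FPKM in T2 samples, and the highest sum was that of T2 replicate 2. The median log2 fold change over the 28536 unigenes tested was 0.10 as deposited and 0.23 when every sample was scaled to 1 common sum. As deposited, it was -0.24 for unigenes with means of 100 to 500 FPKM. Changes of members are to be read against the move with scaling and against this lower median of strongly expressed unigenes. All 77 members passed the filter on low values (at least 1 FPKM in at least 3 samples), and none was listed at 0 in any sample.

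The members spanned a wide range. Their means over the 6 samples lay between 508 and 4379 FPKM with a median of 719 FPKM, and 16 of them had a mean of at least 1000 FPKM. In every single sample, 40 members were at or above 500 FPKM. The mean of both lines reached 500 FPKM for 50 members, that of T2Plus line alone for 8 members and that of T2 line alone for 19 members, so those 27 members entered through the line in which they were high. At the threshold, TRINITY_DN867_c0_g2, TRINITY_DN30712_c0_g2 and TRINITY_DN26480_c0_g1 were the last members inside, with means of 518, 518 and 508 FPKM. The first unigenes outside were TRINITY_DN8262_c3_g1, TRINITY_DN5948_c0_g6 and TRINITY_DN254_c0_g4, with means of 499, 493 and 493 FPKM.

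At the top of the order, different unigenes led in each line. Values are given for replicates 1, 2 and 3 in that order throughout, and the ± after a log2 fold change (T2Plus minus T2) is the SE of the limma fit with n = 3 per line. TRINITY_DN212_c0_g2, the first in T2Plus line, had 4881, 5230.5 and 5443 FPKM in T2Plus samples, against 3477, 3811 and 3434 FPKM in T2 samples. Every T2Plus sample was above every T2 sample, and the difference passed the adjusted p but not the 2-fold limit (log2 fold change 0.54 ± 0.10, adjusted p = 0.0151). The adjusted p was at most 0.05 in only 7 of 17 alternative fits (range 0.00231 to 0.158), with 0.101 under the replicate block and 0.0513 to 0.0946 with any 1 sample other than T2 replicate 2 left out. TRINITY_DN32865_c0_g4, the first in T2 line, had 2536, 2522 and 3001 FPKM in T2Plus samples, against 3654, 6539.8 and 3612 FPKM in T2 samples. The groups did not overlap here either, but T2 replicate 2 stood far above the other T2 samples and the difference missed the threshold (log2 fold change -0.72 ± 0.25, adjusted p = 0.103).

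The unigene annotated by the study as oxygen-evolving enhancer protein 1, TRINITY_DN43326_c0_g1, was the fourth most abundant of the unigenes in the file and the only member with a protein name in the annotation at hand. It had 2443, 2541 and 3026 FPKM in T2Plus samples, against 3429, 4697 and 3425 FPKM in T2 samples. All T2Plus samples were below all T2 samples (log2 fold change -0.52 ± 0.16, adjusted p = 0.0834), and the change was -0.37 on the log2 scale with adjusted p = 0.0654 when T2 replicate 2 was left out. A gene for a chloroplast protein at this level in every sample goes with the label of a seedling. The other chloroplast markers with a name were weakly expressed in both lines: the ChlD subunit of magnesium chelatase averaged 3.88 FPKM in T2Plus line and 3.04 FPKM in T2 line, and the plastid 30S ribosomal protein S10 alpha averaged 14.4 FPKM in T2Plus line and 11.6 FPKM in T2 line. The study's KEGG list of photosynthesis had 6 unigenes in the file, none with a mean of 500 FPKM over both lines. Of these 5 were down-regulated, with log2 fold changes between -2.41 and -1.01, and the most abundant of them, TRINITY_DN26852_c0_g2 and TRINITY_DN841_c0_g1, averaged 289.9 and 277 FPKM in T2Plus line, against 684 and 679.9 FPKM in T2 line. The remaining unigene, TRINITY_DN2363_c0_g1, was very weak and went the other way, with means of 2.05 FPKM in T2Plus line and 0.53 FPKM in T2 line. It was higher in every T2Plus sample but not called (log2 fold change 0.98 ± 0.32, adjusted p = 0.0899). The study drew this list from genes that it found changed. The 43 unigenes whose best protein match lay outside green plants made up between 0.151% and 0.165% of the sum of any sample, and since 1 member alone had a protein match at hand, the members could not be looked at in this way.

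Another 4 of the 10 most abundant unigenes had levels that overlapped between the lines. TRINITY_DN21261_c1_g1 had 4425, 4438 and 3204 FPKM in T2Plus samples, against 2678, 4331 and 2134 FPKM in T2 samples. For TRINITY_DN831_c0_g1 the values were 3267, 3231 and 2801 FPKM in T2Plus samples, against 2141, 4069 and 1573 FPKM in T2 samples. In both unigenes T2 replicates 1 and 3 were below every T2Plus sample while T2 replicate 2 was not. TRINITY_DN254_c0_g1 was the steadiest of the 10, with 2130.2, 2204 and 2421 FPKM in T2Plus samples, against 2082, 2188 and 2127 FPKM in T2 samples (log2 fold change 0.08 ± 0.09, adjusted p = 0.637). TRINITY_DN5395_c0_g1 averaged 1492 ± 139 FPKM in T2Plus line and 1839 ± 491 FPKM in T2 line (SD, n = 3 each), and its T2Plus range lay across the level of T2 replicates 1 and 3.

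The remaining members among the first 10 did not overlap between the lines. TRINITY_DN173_c0_g2 was higher in every T2Plus sample, with 2727, 2609 and 2093 FPKM, against 1379, 1931 and 1211 FPKM in T2 samples (log2 fold change 0.74 ± 0.20, adjusted p = 0.0516). TRINITY_DN51047_c0_g1 was lower in every T2Plus sample, with 1318, 1402 and 1545 FPKM, against 1954, 2345 and 1925 FPKM in T2 samples (log2 fold change -0.54 ± 0.12, adjusted p = 0.0251). TRINITY_DN16097_c0_g1 was lower as well, with 1127, 1221 and 1376 FPKM in T2Plus samples, against 1574, 2608 and 1638 FPKM in T2 samples, but missed the threshold (log2 fold change -0.61 ± 0.21, adjusted p = 0.106). None of the 10 reached a 2-fold difference between the line means, and of the 10 only TRINITY_DN212_c0_g2 and TRINITY_DN51047_c0_g1 passed the adjusted p alone. For TRINITY_DN51047_c0_g1 this held in 8 of 17 alternative fits (range 0.0163 to 0.139, with 0.0953 under the replicate block). When T2 replicate 2 was left out, TRINITY_DN32865_c0_g4, TRINITY_DN831_c0_g1, TRINITY_DN173_c0_g2 and TRINITY_DN16097_c0_g1 passed it as well, with log2 fold changes of -0.44, 0.75, 0.93 and -0.38 and adjusted p-values of 0.0279, 0.0283, 0.0116 and 0.0480, but over all 17 alternatives the 4 passed in 2, 1, 4 and 2 fits in the same order.

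**Figure D1:**
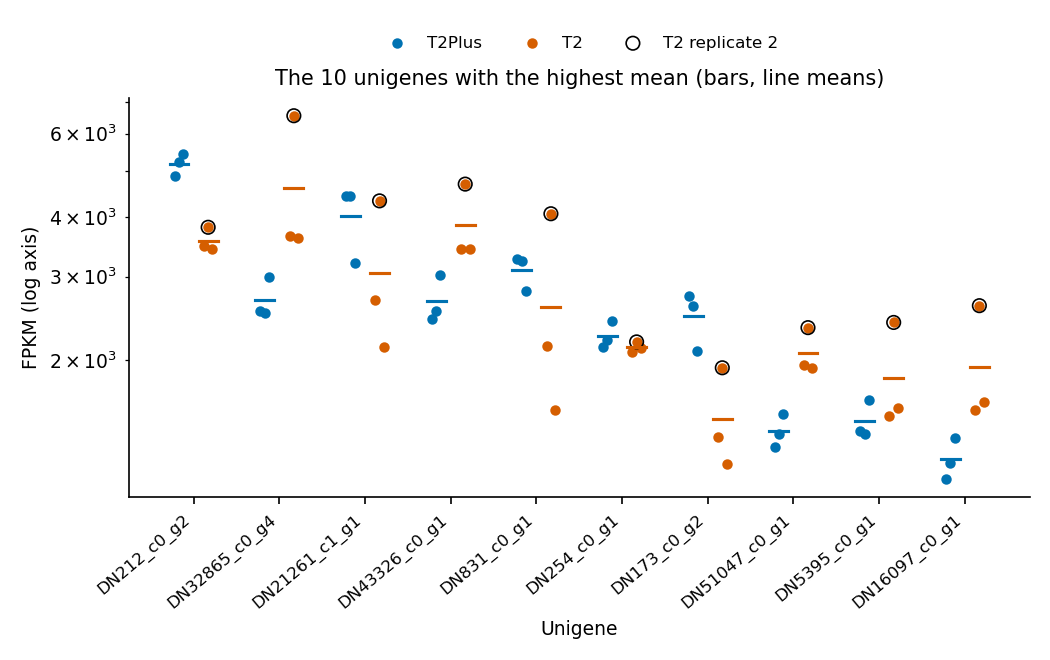
FPKM (log axis) of the 10 unigenes with the highest mean in each T2Plus sample (blue, left of each pair) and each T2 sample (orange), with horizontal bars at the line means and a ring around T2 replicate 2; unigene names are shown without their first part. The ringed sample is the highest T2 sample for each of the 10, and only TRINITY_DN212_c0_g2 and TRINITY_DN173_c0_g2 have every T2Plus sample above every T2 sample.

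To compare the lines, limma was fitted on log2(FPKM + 1) of all 28536 unigenes, and calls required both an adjusted p no higher than 0.05 and a change of at least 2-fold. Of the 77 members, 3 were up-regulated in T2Plus line (3.90%), beside 7.22% of all unigenes tested, and 16 were down-regulated (20.8%), beside 6.30% of all unigenes tested. The T2 means of the 3 up-regulated members were 109, 270 and 328 FPKM, so they entered only through T2Plus line. Most of the 16 down-regulated members had a T2Plus mean below 500 FPKM and entered only through T2 line. The shares of calls thus depend on how members were chosen and are a description. Unigenes of the next lower band, with means of 100 to 500 FPKM, were up-regulated in 3.59% and down-regulated in 13.7% of 752 cases, so falls outnumbered rises there too. The split of the member calls depended on the scaling: under quantile normalization 6 members were up-regulated and 6 down-regulated, and with every sample scaled to 1 common sum the counts were 5 and 16. Without T2 replicate 2 they were 5 and 13.

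Below the 2-fold limit, further members separated the lines. By the adjusted p alone, 8 members were higher in T2Plus line, beside 8.54% of all unigenes tested, and 30 were lower, beside 8.64%. These counts were unstable: the replicate block gave 5 and 18, and the fit without the intensity trend gave 3 and 16. All T2Plus samples were above all T2 samples for 14 members (18.2%), beside 19.5% of all unigenes tested, and below them for 36 members (46.8%), beside 16.4%. In the band of 100 to 500 FPKM the share below was 46.3%, close to that of the members. The median log2 fold change of the members was -0.27, with 28 positive and 49 negative values. Over all unigenes tested the median was 0.10, but in the band of 100 to 500 FPKM it was -0.24, close to the members. With a common sum the member median was -0.14, and under quantile normalization it was 0.04 with 41 positive values.

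**Figure D2:**
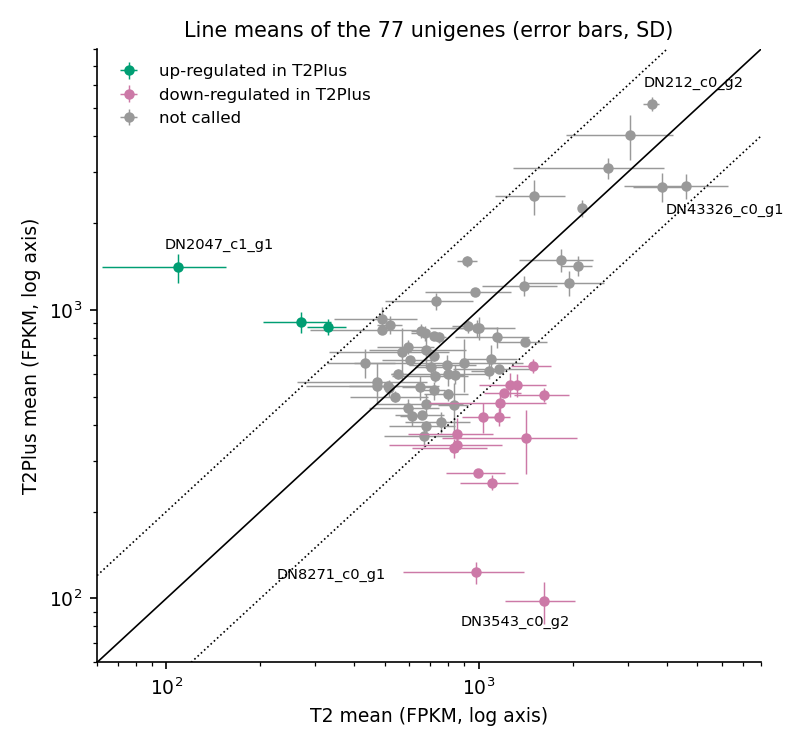
Mean FPKM of the 77 unigenes in T2Plus line (vertical, log axis) against T2 line (horizontal, log axis), with error bars of 1 SD over 3 samples; the solid line marks equal means and the dotted lines a 2-fold difference. The 3 up-regulated unigenes lie at the upper left and the 16 down-regulated ones below the lower dotted line, and horizontal error bars are mostly longer than vertical ones.

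The up-regulated members were weakly expressed in T2 line compared with the other members. TRINITY_DN2047_c1_g1 had 1414, 1234 and 1559.5 FPKM in T2Plus samples, against 77.1, 162 and 87.0 FPKM in T2 samples. Its mean was 12.9-fold higher in T2Plus line (log2 fold change 3.75 ± 0.28, adjusted p = 8.22e-04), and its mean of 1402 ± 163 FPKM in T2Plus line put it among the strongest transcripts there, while it averaged 109 ± 46.3 FPKM in T2 line (SD, n = 3 each). TRINITY_DN2352_c0_g2 had 822, 961 and 937 FPKM in T2Plus samples, against 225, 346 and 239.9 FPKM in T2 samples, a 3.36-fold difference of the means (log2 fold change 1.77 ± 0.18, adjusted p = 0.00200). For both unigenes no protein name or pathway is given in the tables used here.

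TRINITY_DN68_c1_g2 was the third up-regulated member and the only one of them in a functional list of the study, where it stands under urea transport. It had 815, 884 and 924 FPKM in T2Plus samples, against 301, 383 and 302 FPKM in T2 samples. The means differed 2.66-fold (log2 fold change 1.42 ± 0.12, adjusted p = 0.00128). The lines were apart in each of these 3 unigenes, and T2 replicate 2 was the highest T2 sample in all of them, that is, the sample nearest to T2Plus line. Without it their log2 fold changes were 4.07, 1.96 and 1.53.

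TRINITY_DN7925_c0_g2 lay just under the 2-fold limit. It had 868, 885 and 1040.0 FPKM in T2Plus samples, against 377, 653 and 437 FPKM in T2 samples (log2 fold change 0.96 ± 0.21, adjusted p = 0.0246), and was called when its top isoform alone was taken, with the non-members scaled to a common sum, with every sample scaled to a common sum, under quantile normalization and without T2 replicate 2 (log2 fold change 1.19, adjusted p = 0.00395). TRINITY_DN1082_c5_g1 had 878, 828 and 959 FPKM in T2Plus samples, against 487, 577 and 499.6 FPKM in T2 samples (log2 fold change 0.77 ± 0.11, adjusted p = 0.00512), and was called under quantile normalization. In both unigenes every T2Plus sample was above every T2 sample. TRINITY_DN656_c0_g1, outside the naming rule, was called with every sample scaled to a common sum, under quantile normalization and without T2 replicate 2, and had 831, 850.2 and 881 FPKM in T2Plus samples, against 357, 724 and 389.8 FPKM in T2 samples (log2 fold change 0.87 ± 0.26, adjusted p = 0.0717).

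The largest fall was that of TRINITY_DN3543_c0_g2. It had 79.9, 111 and 102 FPKM in T2Plus samples, against 1306, 2080.1 and 1472 FPKM in T2 samples, so that its mean in T2 line was 16.6 times that in T2Plus line (log2 fold change -4.02 ± 0.21, adjusted p = 2.29e-04). TRINITY_DN8271_c0_g1, listed by the study under carbon utilization, had 119, 115 and 136 FPKM in T2Plus samples, against 719, 1453 and 772 FPKM in T2 samples. Its mean in T2 line was 7.96 times that in T2Plus line (log2 fold change -2.91 ± 0.27, adjusted p = 0.00161). These 2 members had the lowest T2Plus means of all 77, 97.7 ± 16.0 and 123 ± 10.8 FPKM (SD, n = 3 each).

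Of the next 6 strongest falls, 2 were unigenes that the study had placed in functional lists. TRINITY_DN2409_c5_g1 stands under sulfate assimilation, the route by which plants take up inorganic sulfur into cysteine, and had 243, 244 and 269.8 FPKM in T2Plus samples, against 962, 1373 and 979.9 FPKM in T2 samples (log2 fold change -2.11 ± 0.15, adjusted p = 8.05e-04). TRINITY_DN24533_c0_g1 stands under photosynthesis and had 270.4, 269.7 and 277 FPKM in T2Plus samples, against 854, 1242 and 897 FPKM in T2 samples (log2 fold change -1.85 ± 0.15, adjusted p = 0.00112). The T2Plus samples of this unigene were nearly equal, with an SD of 3.86 FPKM.

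Of the fallen members without a name, TRINITY_DN38438_c0_g1 had 293, 324 and 464 FPKM in T2Plus samples, against 1092, 2166 and 987 FPKM in T2 samples (log2 fold change -1.91 ± 0.33, adjusted p = 0.0109). T2 replicate 2 was 2.08 times the mean of the other T2 samples here, and the adjusted p was 0.0604 without T2Plus replicate 1. TRINITY_DN17656_c0_g1 had 476, 519 and 528 FPKM in T2Plus samples, against 1438, 1987 and 1424 FPKM in T2 samples (log2 fold change -1.65 ± 0.15, adjusted p = 0.00146). TRINITY_DN147_c0_g1 had 404, 416 and 461 FPKM in T2Plus samples, against 1080.5, 1278 and 1113 FPKM in T2 samples (log2 fold change -1.43 ± 0.10, adjusted p = 7.79e-04). For TRINITY_DN2499_c1_g2 the values were 318, 316 and 360.3 FPKM in T2Plus samples, against 694, 1093 and 721 FPKM in T2 samples (log2 fold change -1.30 ± 0.19, adjusted p = 0.00580). In all 4 unigenes the groups were apart, but TRINITY_DN147_c0_g1 and TRINITY_DN2499_c1_g2 stayed under the 2-fold limit with quantile normalization (log2 fold changes -0.99 and -0.92).

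**Figure D3:**
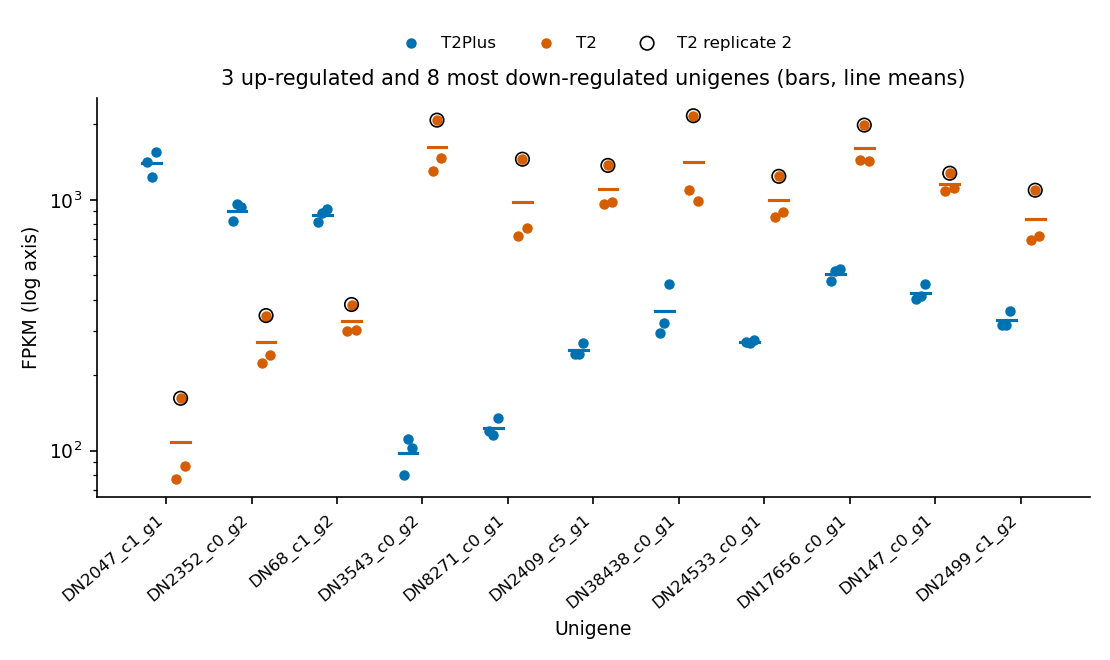
FPKM (log axis) of the 3 up-regulated and the 8 most strongly down-regulated unigenes in each T2Plus sample (blue, left of each pair) and each T2 sample (orange), with bars at the line means and a ring around T2 replicate 2; unigene names are shown without their first part. The lines do not overlap for any of the 11, and the ringed sample is the highest T2 sample in each.

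A set of 3 members listed under carbon fixation or metal ion transport fell by a little over 2-fold. TRINITY_DN8340_c1_g1, placed in the reductive pentose-phosphate cycle (the Calvin cycle, in which carbon dioxide is fixed), had 506, 538 and 608 FPKM in T2Plus samples, against 1243, 1278 and 1243 FPKM in T2 samples (log2 fold change -1.19 ± 0.10, adjusted p = 0.00107). It was among the few members for which T2 replicate 2 was level with the other T2 samples. TRINITY_DN18705_c0_g1, placed in carbon fixation and glucose metabolism, had 391, 399 and 485 FPKM in T2Plus samples, against 929.5, 1205 and 963 FPKM in T2 samples (log2 fold change -1.28 ± 0.14, adjusted p = 0.00272). TRINITY_DN2569_c0_g1, placed in metal ion transport and homeostasis, had 497, 527 and 524 FPKM in T2Plus samples, against 1301, 1016 and 1288 FPKM in T2 samples (log2 fold change -1.21 ± 0.12, adjusted p = 0.00195). Each of the 3 was below the 2-fold limit under quantile normalization, with log2 fold changes of -0.79, -0.87 and -0.89 in the same order.

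The other 5 down-regulated members were TRINITY_DN1641_c0_g1, TRINITY_DN2726_c0_g1, TRINITY_DN4027_c0_g1, TRINITY_DN8662_c0_g1 and TRINITY_DN3660_c0_g2, none of them named in the tables. Their means were between 339 and 641 FPKM in T2Plus line and between 851 and 1489 FPKM in T2 line, with log2 fold changes between -1.26 and -1.17. TRINITY_DN4027_c0_g1, TRINITY_DN8662_c0_g1 and TRINITY_DN3660_c0_g2 were not called when T2 replicate 2 was left out, nor without T2Plus replicate 1 or 2, and under quantile normalization all 5 lost the call. Of all 19 calls, 15 held with any 1 sample left out, and 16 were among the 18 calls made without T2 replicate 2. The groups did not overlap in any of the 19, which is no separate support, since the calls rest on the same values.

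Between the adjusted p and the 2-fold limit stood 19 members, 5 of them higher and 14 lower in T2Plus line. The higher ones were TRINITY_DN212_c0_g2, TRINITY_DN7925_c0_g2, TRINITY_DN1082_c5_g1, TRINITY_DN12504_c0_g1 and TRINITY_DN35097_c1_g1. TRINITY_DN35097_c1_g1, named here for its values, had 1410.2, 1471 and 1542 FPKM in T2Plus samples, against 926, 850.3 and 984 FPKM in T2 samples (log2 fold change 0.68 ± 0.09, adjusted p = 0.00529), and its T2 replicate 2 was the lowest of all 6. TRINITY_DN12504_c0_g1 averaged 847 ± 44.9 FPKM in T2Plus line and 653 ± 46.1 FPKM in T2 line (SD, n = 3 each). The largest of the 14 lower values was that of TRINITY_DN3973_c0_g1, which averaged 409 ± 33.3 FPKM in T2Plus line and 757 ± 177 FPKM in T2 line (SD, n = 3 each). The groups were apart in each of these 19 members, which is no separate support, since the members were chosen on the same values. Each missed the adjusted p in 1 or more of 17 alternative fits, and they passed in 7 to 16 of them.

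The members not called numbered 58. Their log2 fold changes lay between -0.87 and 0.96 with a median of -0.16, and in 31 of them the groups did not overlap. Over all unigenes tested, every T2Plus sample was above every T2 sample in 19.5% and below in 16.4%. In the band of 100 to 500 FPKM these shares were 16.9% and 46.3%, so such separation was common at this abundance. Line means within 1.1-fold of each other were found for 9 of them. Apart from TRINITY_DN254_c0_g1, TRINITY_DN84245_c0_g1 was such a case, with 671, 682 and 719 FPKM in T2Plus samples, against 723, 724 and 711 FPKM in T2 samples (log2 fold change -0.06 ± 0.08, adjusted p = 0.661), and TRINITY_DN5913_c0_g1 had 506, 521 and 576 FPKM in T2Plus samples, against 522, 513 and 513 FPKM in T2 samples (log2 fold change 0.05 ± 0.08, adjusted p = 0.753). These 2 were picked after their values were seen, for the small spread between their samples.

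The members together held a similar part of the summed values in 5 of the 6 samples. Their share of the summed values was 12.6%, 13.0% and 13.4% in T2Plus samples, against 13.1%, 16.3% and 12.8% in T2 samples. This gave a mean of 13.0% ± 0.434 in T2Plus line and 14.1% ± 1.96 in T2 line (SD, n = 3 each). The difference of -1.10 percentage points was smaller than the SD of T2 line, and without T2 replicate 2 the T2 mean was 13.0% and the difference 0.033 percentage points. The file holds 65535 isoform rows, fewer than the study assembled, so that the shares refer to the summed values in this file.

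Within this nearly equal total, the parts of some members differed between the lines. The 10 most abundant members held 4.91%, 5.08% and 4.96% in T2Plus samples, against 4.23%, 5.57% and 4.01% in T2 samples. The other 67 members held 7.65%, 7.88% and 8.47% in T2Plus samples, against 8.83%, 10.8% and 8.83% in T2 samples. Only the second set was apart between the lines, and it holds all called members. The members not called held 10.9%, 11.2% and 11.5% in T2Plus samples, against 10.1%, 12.4% and 9.78% in T2 samples, which overlapped. TRINITY_DN212_c0_g2 alone made up 0.912%, 0.991% and 1.02% in T2Plus samples, against 0.616%, 0.608% and 0.607% in T2 samples. The 16 down-regulated members took 1.09%, 1.15% and 1.27% in T2Plus samples, against 2.89%, 3.78% and 2.95% in T2 samples, which follows from how they were called. The 3 up-regulated ones took 0.570% to 0.639% in T2Plus samples, against 0.107% to 0.142% in T2 samples.

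**Figure D4:**
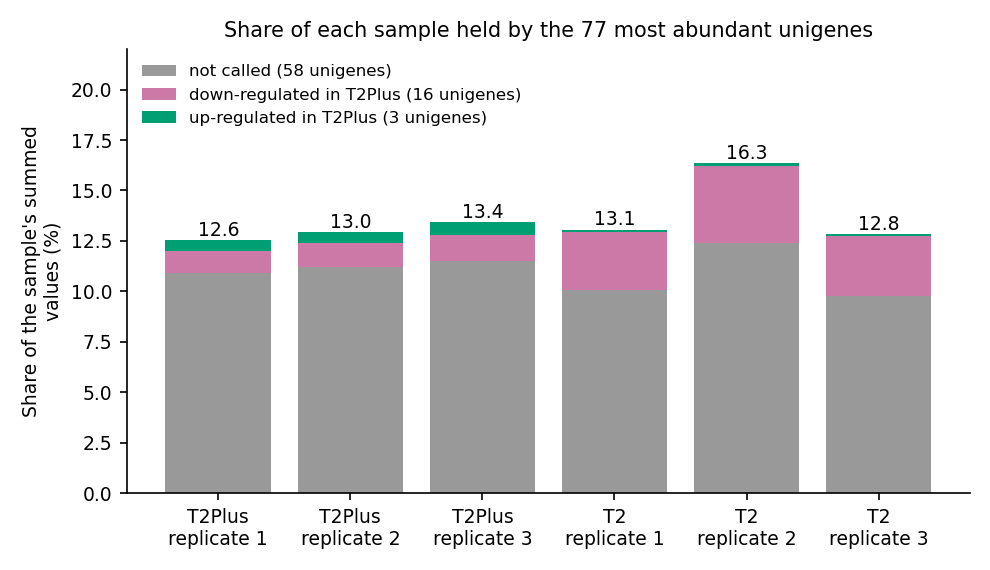
Share of each sample's summed values (vertical axis, percent, from 0) held by the 77 unigenes in the 3 T2Plus samples and the 3 T2 samples, split by call; the number above each bar is the total. T2 replicate 2 stands at 16.3%, and the other 5 samples lie between 12.6% and 13.4%.

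Replicate 2 of T2 line stood apart for most members. It was the highest T2 sample for 67 of 77 members (87.0%), and the median ratio of its value to the mean of the other T2 samples was 1.42, with 30 members at 1.5 or more. Among the 28459 unigenes tested that were not members this median was 0.82, and in the band of 100 to 500 FPKM it was 1.25. Members were chosen on a mean that includes this sample. When unigenes were grouped by their T2Plus mean, which does not hold it, the median ratio was 0.61 for 1 to 10 FPKM, 1.05 for 10 to 100 FPKM, 1.24 for 100 to 500 FPKM and 1.36 for 500 FPKM and above (64 unigenes). The ratio thus went up with abundance, from weak to strong transcripts.

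TRINITY_DN15992_c1_g1 showed the highest ratio, 2.41, with 548, 608 and 807 FPKM in T2Plus samples, against 611, 1467 and 606 FPKM in T2 samples. TRINITY_DN831_c0_g1, TRINITY_DN38438_c0_g1, TRINITY_DN10045_c1_g1 and TRINITY_DN30712_c0_g2 followed with ratios of 2.19, 2.08, 2.07 and 2.00. In TRINITY_DN10045_c1_g1, with 551, 547 and 541 FPKM in T2Plus samples, against 371, 784 and 387 FPKM in T2 samples, the T2Plus samples lay between T2 replicate 2 and the other T2 samples. This order, with T2 replicate 2 above and the other T2 samples below all T2Plus samples, occurred in 8 members. T2 replicates 1 and 3 were below all T2Plus samples in 27 members, and replicate 2 did not follow them in 13 of these. They were above all T2Plus samples in 37 members, and replicate 2 did not follow them in 1. These orders were counted for the members only, so no share over other unigenes stands beside them.

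A few members went the other way. In TRINITY_DN3559_c0_g1 T2 replicate 2 was 0.549 times the mean of the other T2 samples, with 1122, 1188 and 1156 FPKM in T2Plus samples, against 1159, 629 and 1131 FPKM in T2 samples. TRINITY_DN19692_c0_g1 had 733, 710.0 and 789 FPKM in T2Plus samples, against 667, 452 and 664 FPKM in T2 samples. TRINITY_DN2797_c0_g2 had 921, 799.9 and 868 FPKM in T2Plus samples, against 1147, 813 and 993 FPKM in T2 samples. The other members with the lowest ratios were TRINITY_DN2569_c0_g1 (0.784) and TRINITY_DN147_c0_g2 (0.803). Replicate 2 was thus not higher for every member.

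**Figure D5:**
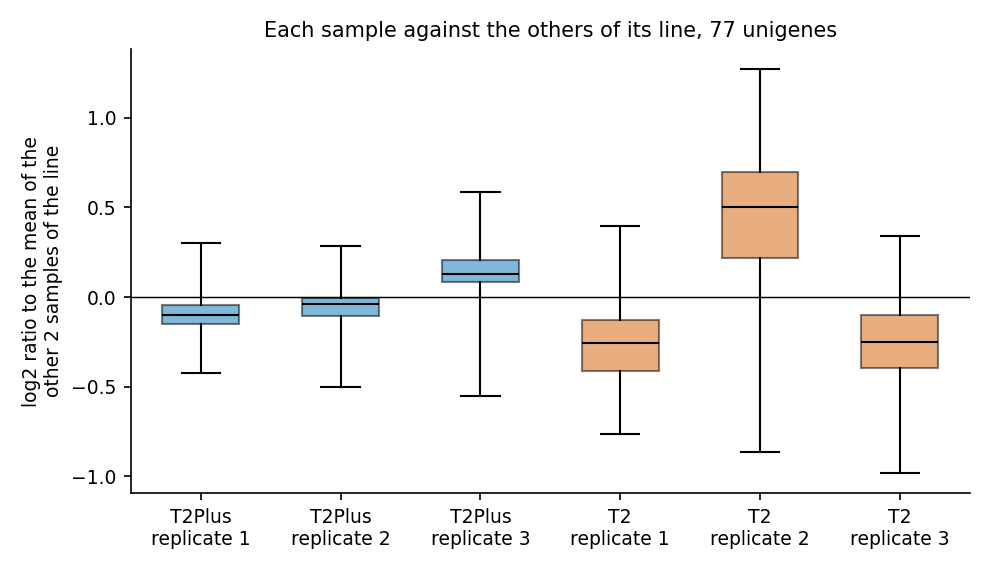
Log2 ratio of each sample to the mean of the other 2 samples of its line (vertical axis) over the 77 unigenes, T2Plus samples left and T2 samples right; boxes span the quartiles, the line inside is the median, whiskers reach the lowest and highest unigene, and 0 marks equality. T2 replicate 2 has a median ratio of 1.42 (0.50 on the log2 scale) and the widest box, and T2Plus replicate 3 is the highest of its line with a median ratio of 1.10.

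The other samples of T2 line were close to each other. T2 replicates 1 and 3 differed by a median of 1.04-fold over the members and lay within 1.1-fold of each other for 64 of 77. In T2Plus line, replicates 1 and 2 differed by a median of 1.04-fold, replicates 1 and 3 by 1.14-fold and replicates 2 and 3 by 1.10-fold. The median coefficient of variation of the members was 7.39% in T2Plus line and 23.4% in T2 line, and it was 2.50% between T2 replicates 1 and 3. For the 100 to 500 FPKM band the medians were 6.34% in T2Plus line and 16.0% in T2 line, so the wide T2 spread was shared by weaker unigenes.

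Depth also set T2 replicate 2 apart. The worth of 1 read, read from the most frequent ratio between samples among weakly expressed isoforms, was 0.742 of that in T2 replicate 1, against 1.13 in T2 replicate 3 and 0.940 to 1.11 in T2Plus samples, and a lower worth means more reads. All the same, the fewest unigenes were above 0 in this sample, 28177 against 30782 to 33997 in T2Plus samples and 30699 and 30936 in the other T2 samples. Whether depth or the makeup of this sample had a part in its high member values was not tested.

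In the order of abundance, the lines shared most but not all of their leading unigenes. Of the 77 most abundant unigenes of each line, 50 were common to both, and the same number was found without T2 replicate 2. Of the first 10 in each line, 8 were shared. TRINITY_DN173_c0_g2 and TRINITY_DN35097_c1_g1 were among them in T2Plus line only, and TRINITY_DN16097_c0_g1 and TRINITY_DN3543_c0_g2 in T2 line only. Between the lines 38 members stood higher and 38 lower in T2Plus line, and TRINITY_DN15507_c0_g2 held place 44 in both. The median shift was 27 places among the 62591 unigenes of the file, with 23 members moving by 10 places or fewer and 20 by more than 50.

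TRINITY_DN2047_c1_g1 held place 11 in T2Plus line, against place 831 in T2 line, the largest gain. TRINITY_DN2352_c0_g2 held place 17 in T2Plus line, against place 225 in T2 line, and TRINITY_DN68_c1_g2 place 20 in T2Plus line, against place 185 in T2 line. TRINITY_DN7925_c0_g2 and TRINITY_DN1082_c5_g1 held places 16 and 18 in T2Plus line, against places 102 and 94 in T2 line. On the losing side, TRINITY_DN3543_c0_g2 held place 786 in T2Plus line, against place 10 in T2 line, and TRINITY_DN8271_c0_g1 place 541 in T2Plus line, against place 31 in T2 line. TRINITY_DN2409_c5_g1, TRINITY_DN24533_c0_g1 and TRINITY_DN38438_c0_g1 followed with places 171, 156 and 107 in T2Plus line, against places 24, 29 and 14 in T2 line. TRINITY_DN17656_c0_g1 lost fewer places, with place 62 in T2Plus line, against place 11 in T2 line. The members thus included unigenes that were leading transcripts of 1 line and stood much lower in the other. Even the lowest places, 831 in T2 line and 786 in T2Plus line, were high among the 62591 unigenes of the file. Such contrasts are partly built in, since a high mean in 1 line could be enough to become a member.

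More than 1 isoform row was present for 14 members (18.2%), beside 14.4% in the 100 to 500 FPKM band and 4.25% of all unigenes in the file. The leading isoform was the same in both lines for all 14. Its share of the unigene differed most for TRINITY_DN7925_c0_g2, where TRINITY_DN7925_c0_g2_i4 made up 93.8% to 94.2% in T2Plus samples, against 74.5% to 77.6% in T2 samples. That isoform averaged 875 FPKM in T2Plus line and 370.0 FPKM in T2 line, while the second isoform, TRINITY_DN7925_c0_g2_i2, stood in the opposite order, with 56.4 FPKM in T2Plus line and 119 FPKM in T2 line. In TRINITY_DN3726_c0_g1 the lead isoform made up 94.1% to 94.7% in T2Plus samples, against 76.1% to 81.5% in T2 samples. These 2 unigenes are named here because of their values.

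Of the members, 13 shared their Trinity component with another unigene of the file, which marks transcripts of similar sequence whose reads the assembly may divide between them. TRINITY_DN147_c0_g1 and TRINITY_DN147_c0_g2 were the only such pair of members. TRINITY_DN147_c0_g2 had 572, 616 and 651 FPKM in T2Plus samples, against 1146, 925 and 1157 FPKM in T2 samples (log2 fold change -0.81 ± 0.12, adjusted p = 0.00633). Both were lower in every T2Plus sample, with only TRINITY_DN147_c0_g1 past the 2-fold limit. TRINITY_DN254_c0_g4, just outside the threshold, is the sister of TRINITY_DN254_c0_g1 and had 531, 533 and 592 FPKM in T2Plus samples, against 416, 484 and 401 FPKM in T2 samples (log2 fold change 0.35 ± 0.10, adjusted p = 0.0700). TRINITY_DN15507_c0_g2, not called itself, had weak sisters on either side: TRINITY_DN15507_c0_g1 averaged 6.48 ± 1.69 FPKM in T2Plus line and 14.4 ± 2.54 FPKM in T2 line, and TRINITY_DN15507_c0_g3 averaged 30.5 ± 5.0 FPKM in T2Plus line and 13.4 ± 3.18 FPKM in T2 line (SD, n = 3 each). The first was down-regulated (adjusted p = 0.0338) and the second up-regulated (adjusted p = 0.0152). Values of such pairs are uncertain as far as reads could be divided between them.

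Names were few. Of the 77 members, 2 appeared in the part of the annotation at hand, which holds 1637 unigenes, and 1 of these carried a protein name (the oxygen-evolving enhancer protein). The second, TRINITY_DN7925_c0_g2, carried no protein name there. In functional lists of the study stood 7 members, all described above, and 69 had neither a name nor a list. The lists were drawn by the study from genes that it found changed in these samples, so that the calls of all 7 are no independent evidence of a direction. In the list of carbon fixation in photosynthetic organisms, 6 of 14 unigenes were in the file, of which 5 were down-regulated (median log2 fold change -1.29). In the sulfur metabolism list 3 of 6 were in the file and all 3 were down-regulated (median -2.11). Some other lists with a member were evenly split. The counts were 1 up-regulated and 1 down-regulated of 2 under urea transport and 4 and 4 of 12 under metal ion transport. Under carbohydrate catabolic process they were 6 and 6 of 12 tested. Further lists had more falls than rises, with 1 and 7 of 10 under photosynthesis and 2 and 10 of 13 under cellular ion homeostasis. Under glucose metabolic process all 5 unigenes in the file were down-regulated. No list with a member had more rises than falls. Calls over the whole table came to 7.22% upward and 6.30% downward, a background that these lists, drawn from changed genes, do not share. Longer lists were at hand only in part.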

How the data were processed

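Poly(A) RNA of 3 T2Plus and 3 T2 seedling samples was sequenced on an Illumina instrument. Per the submitters' processing notes and the study's methods, the authors trimmed reads with Trimmomatic 0.36, checked them with FastQC 0.11.5, assembled them with Trinity and estimated expression with RSEM, and they called changed genes with DESeq. The deposited values are FPKM per isoform after TMM scaling. The methods name FPKM, and whether RSEM's TPM column was used instead could not be settled. The read totals stated by the study were not used here. Relative depth was read from low values in the file, and precision is given by the spread of replicates. From the study's tables only names and functional lists were taken.

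Isoforms were summed per unigene. Unigenes that reached 1 FPKM in 3 or more samples were fitted with limma 3.58.1 (R 4.3.3) with an intensity trend on log2(FPKM + 1), T2Plus line against T2 line, without covariates, and p-values were adjusted over all of them by the Benjamini-Hochberg method. The added 1 shrinks the fold change of weakly expressed unigenes. Calls needed an adjusted p of at most 0.05 and 2-fold. Tested on simulated data with 200 changed unigenes, the fit recovered 178 of them with 3 false calls. The planted changes were larger than the 2-fold limit and lay only in well expressed unigenes. Noise was drawn separately for each value, without a shift of a whole sample such as that of T2 replicate 2. These numbers therefore do not carry over to members near the 2-fold limit. Alternatives covered the pseudocount, filter, scaling, trend, replicate block, isoform sum and each sample left out. The rank comparison without T2 replicate 2 was added after seeing the data.

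Named members were the 10 highest means, up to 8 largest called rises and 8 falls, the 5 highest and 5 lowest ratios of T2 replicate 2 to its line, those with a name or list, the 5 largest gains and losses of place among members, and the 3 on each side of the threshold. Members and lists were chosen with earlier results of these data known. Sequences were not analysed here.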

Additional observations from a re-analysis of the deposited data

How the results depend on the processing

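The counts of called members moved most with the scaling and the call rule. Against 3 up-regulated and 16 down-regulated members, scaling to a common sum gave 5 up-regulated, quantile normalization gave 6 up-regulated and 6 down-regulated, and the adjusted p alone gave 8 and 30, a pair of counts that itself lay between 3 and 21 and between 16 and 32 over 17 alternative fits. With 1 sample left out the counts lay between 3 and 5 up-regulated and between 12 and 17 down-regulated. A mean of at least 250 or 1000 FPKM took 223 or 16 unigenes, 500 FPKM in every sample took 40, and 500 after scaling to a sum of 1000000 took 186. With members taken at 250 FPKM, the share in T2Plus line minus that in T2 line was -3.14 percentage points, beside -1.10. For the 35 members named by rule, 608 of 630 log2 fold changes under the alternatives kept direction and their side of the joint rule of adjusted p and 2-fold, 12 became called, 6 lost the call and 4 changed sign. The sign changes were those of TRINITY_DN15992_c1_g1 (0.062 with quantile normalization, and between -0.55 and 0.084 with 1 sample left out), TRINITY_DN2797_c0_g2 (0.24 with quantile normalization) and TRINITY_DN10045_c1_g1 (between -0.012 and 0.53 with 1 sample left out), none of them called. Why quantile normalization moved the calls was not tested.

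With the replicate number as a replicate block, 3 members were up-regulated and 15 down-regulated. The labels do not say whether equal numbers mark paired samples. Deviations of same-numbered samples correlated at 0.037, -0.033 and -0.066, and those of differently numbered samples at between -0.080 and 0.108. With 3 samples per line, these values cannot settle whether samples were handled in pairs. Over all unigenes the block gave 1169 up-regulated and 1146 down-regulated calls, beside 2061 and 1799 without it. With 3 samples per line and no counts, changes well under 2-fold were not resolved for members whose T2 samples spread widely, and the read counts behind each value were not analysed here.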
